A study of Mus musculus with 4 samples.

Results

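The nuclear-encoded subunits of the mitochondrial respiratory chain were examined in the distal colon of Adamts12-deficient (KO) and wild-type (WT) mice with and without dextran sodium sulfate (DSS), which damages the epithelium of the colon and causes colitis. The subunits were chosen by gene symbol: Nduf genes of the a, b, c, s and v series for complex I, Sdha to Sdhd for complex II, Uqcr genes for complex III, Cox4 to Cox8 genes for complex IV, Atp5 genes for complex V, and Cycs for cytochrome c. This gave 82 of the 18193 genes that had a probe set assigned to them alone, each represented by its brightest probe set, by the mean of the 4 arrays. Of these, 78 passed a filter on dim signal, as did 11504 of all genes. By complex they were 32 genes of complex I, 4 of complex II, 8 of complex III, 14 of complex IV and 17 of complex V, with Cycs, the supercomplex factor Cox7a2l and the Ndufa4 paralogue Ndufa4l2 beside them. Ndufa4 was counted with complex IV.

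The groups were a KO mouse given 2% DSS in its water, a WT mouse given the same, an untreated KO mouse and an untreated WT mouse, with 1 array of whole distal colon RNA for each. Mice were 8 to 10 weeks old when treatment began. The length of DSS exposure is given as 7 days in one description and as 8 days in another, each followed by 1 day without it. Adamts12 encodes a secreted metalloprotease, and neither the deleted part of the gene nor the strain is given in the labels.

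Complexes I and II pass electrons from NADH and from succinate to ubiquinone, complex III passes them to cytochrome c, and complex IV passes them to oxygen. Complexes I, III and IV pump protons across the inner mitochondrial membrane, and complex V, the ATP synthase, uses the resulting gradient to make ATP. All except complex II combine a few subunits made from mitochondrial DNA with many made from nuclear genes, and absorptive colonocytes depend on this chain to oxidise butyrate. Complex IV also has subunits with isoforms used mainly in muscle, lung or testis.

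The 4 arrays had medians of 3.42 to 3.46 over all probe sets on the log2 scale. The brighter Adamts12 probe set (1439827_at) was dim, at 1.41 and 1.42 on the KO arrays and 2.18 on both WT arrays. The untreated KO array stood apart in markers of gut position. Hoxb13, a gene of the posterior colon, had a log2 signal of 8.40 in KO DSS colon, 7.84 in WT DSS colon, 2.48 in untreated KO colon and 9.47 in untreated WT colon. Of 8 markers of small intestine and proximal colon, kept by the filter or not, 5 were at least 2-fold higher on the untreated KO array than on the untreated WT array and 3 dim ones differed by under 0.2. Results that use the untreated KO array are therefore given beside those that do not.

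Subunit signals were lowest in the DSS-treated KO colon and highest in the untreated KO colon. In KO mice 69 of the 78 genes were lower with DSS than without, against 44.7% of all genes, and the median log2 difference was -0.42, against 0.07 over all genes. A median of -0.42 corresponds to a signal 1.34 times lower. In WT mice 46 genes were lower with DSS, against 50.1% of all genes, and the median difference was -0.06, against -0.01 over all genes. With 1 array in each group none of these differences has a replicate check. Because whole tissue was measured, fewer cells of a type and less RNA per cell cannot be told apart.

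**Figure D1:**
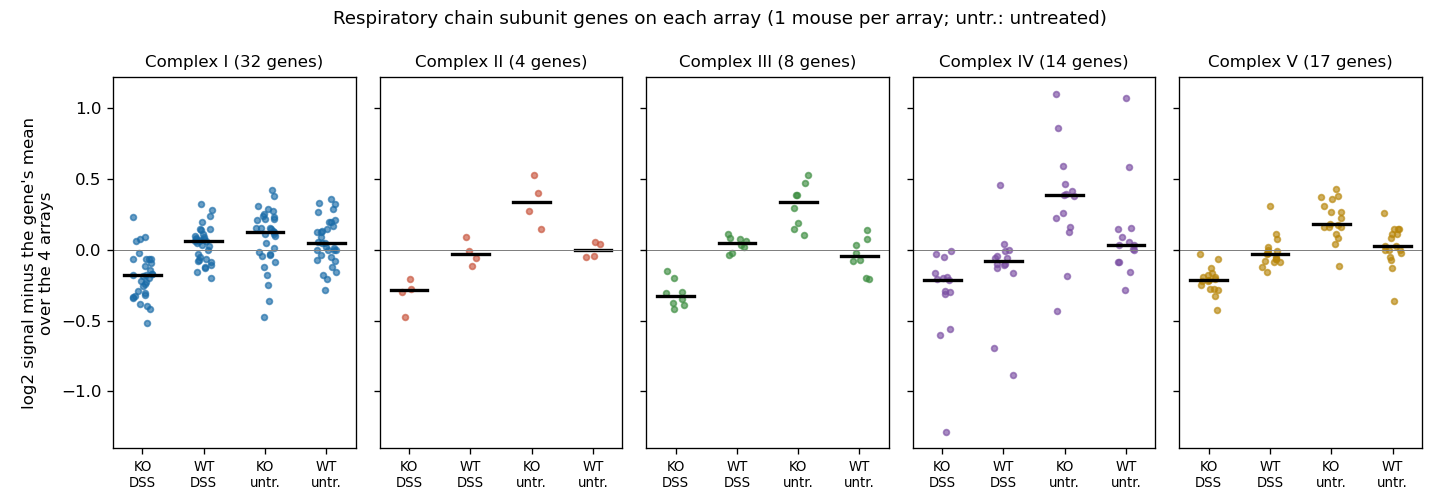
Log2 signal of each subunit gene minus its own mean over the 4 arrays, by complex, with 1 point per gene and a black bar at the median of each array. In complexes II and III the chosen probe set of every gene was lowest on the KO DSS array and highest on the untreated KO array, while the 14 genes of complex IV were the most spread.

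At a threshold of 1.5-fold, 21 subunit genes were lower and 1 was higher with DSS in KO mice. Over all genes 14.4% were lower and 22.3% were higher in that comparison. In WT mice 3 subunit genes were lower and 1 was higher, against 12.6% and 13.5% of all genes. The differences of the subunit genes were narrowly spread, with an SD over genes of 0.40 in KO and 0.32 in WT mice, against 0.87 and 0.65 over all genes. Many subunits were thus displaced together by amounts below the threshold. At 2-fold, 4 were lower in KO mice (Cox7a1, Cox8a, Cox6b2 and Sdhb) and 0 higher, against 6.42% and 10.4% of all genes. Cox6b2, also among the 21, passed the filter only through its untreated KO value, as its mean over the other arrays was 3.41. In WT mice 1 was 2-fold lower (Cox7a1) and 0 higher, against 4.71% and 5.89%.

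Set by sign, 43 subunit genes were lower with DSS in both genotypes, against 26.9% of all genes. Another 24 were higher in WT and lower in KO mice, against 17.0% of all genes. The remainder included 6 that were higher in both genotypes and 3 that were higher in KO but lower in WT mice, against 31.0% and 22.6% of all genes. The DSS difference was more negative in KO than in WT mice for 68 of the 78 genes, against 49.1% of all genes, with a median difference between the genotypes of -0.35 that could not be tested with these arrays. It was at least 1.5-fold more negative for 17 genes, against 15.3% of all genes.

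**Figure D2:**
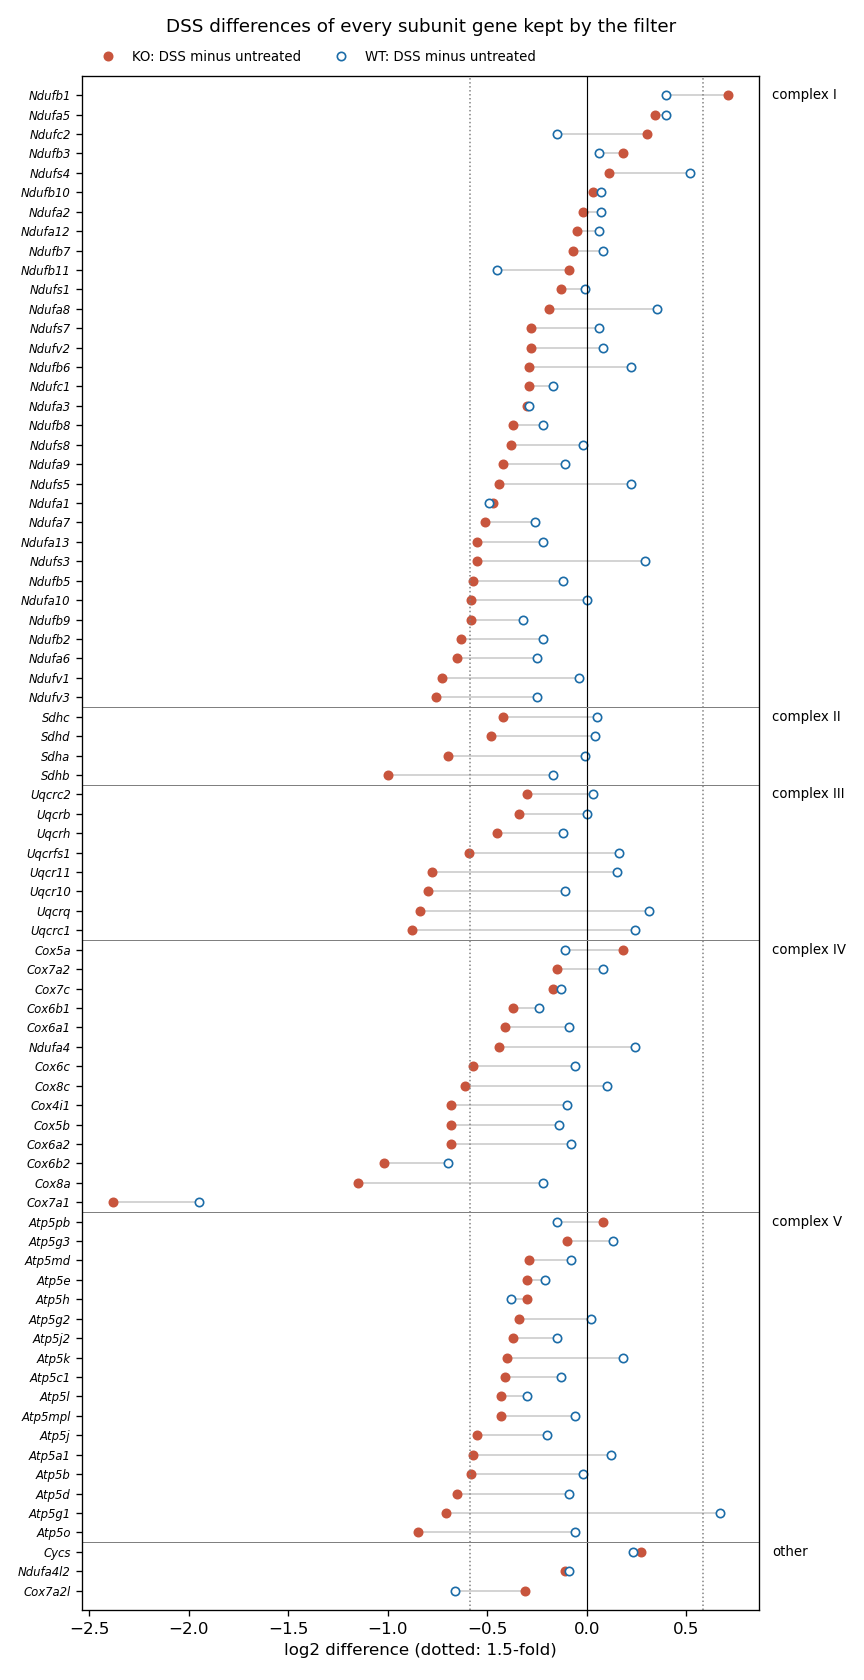
Log2 difference between DSS and untreated colon for each of the 78 subunit genes, in KO mice (filled) and WT mice (open), ordered within each complex, with dotted lines at 1.5-fold. The KO points lie left of the WT points for 68 genes, and Cox7a1 has the most negative difference in both genotypes.

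The KO DSS array had the lowest signal of the 4 arrays for 61 of the 78 genes, against 23.7% of all genes. The untreated KO array had the highest signal for 52, against 27.8% of all genes, and both held for 46, against 13.3%. The complexes differed in this. Both held for 4 of 4 genes of complex II, 8 of 8 of complex III, 12 of 17 of complex V, 9 of 14 of complex IV and 13 of 32 of complex I.

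Without the untreated KO array, the KO DSS array could be set against the untreated WT array. That pair differs in both genotype and treatment, so it does not isolate the effect of DSS. In that comparison 68 subunit genes were lower, against 47.1% of all genes, with a median difference of -0.25 against 0.02 over all genes. At least 1.5-fold lower were 8 genes and none was 1.5-fold higher, against 12.4% and 15.4% of all genes. The lower signal on the KO DSS array was thus present against either untreated array, and its size depended on which of them was used. Both comparisons share the same KO DSS array.

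Subunit genes gave bright signals, and 71 of the 82 were above the 75th percentile of their array on all 4 arrays. Among all genes with a mean above the 75th percentile, 41.1% were lower with DSS in KO mice and 49.5% in WT mice.

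**Figure D3:**
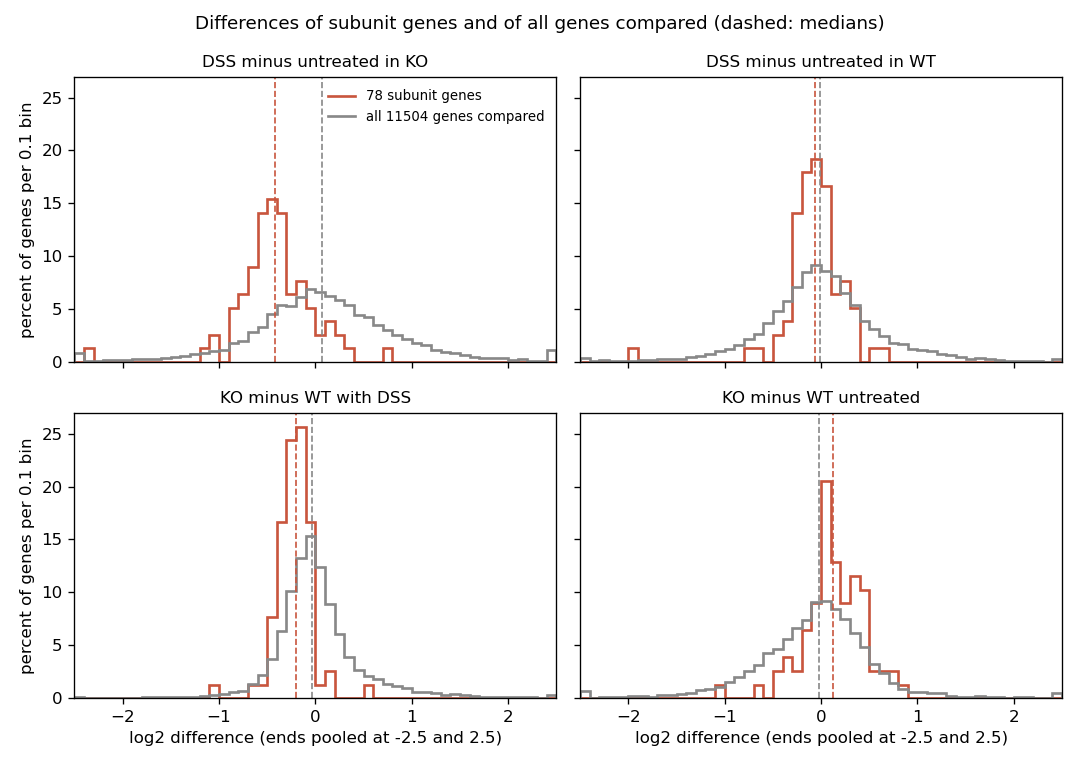
Share of genes by log2 difference in the 4 comparisons, for the 78 subunit genes and for all genes compared, with dashed lines at the medians. The subunit genes form a narrow group centred at -0.42 for DSS in KO mice and at -0.20 for KO against WT with DSS.

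Complex II, succinate dehydrogenase, oxidises succinate in the citric acid cycle and is made from nuclear genes alone. Sdhb (probe set 1418005_at), its iron-sulfur subunit, had a log2 signal of 9.08 in KO DSS colon, 9.44 in WT DSS colon, 10.08 in untreated KO colon and 9.61 in untreated WT colon. The difference with DSS was -1.0 in KO mice, a signal 2.0 times lower, and -0.17 in WT mice. Sdha, the flavoprotein that holds the active site, had 8.67 in KO DSS colon, 8.91 in WT DSS colon, 9.37 in untreated KO colon and 8.92 in untreated WT colon. The WT arrays of Sdha were nearly equal, and the KO arrays lay on either side of them. The membrane anchors Sdhc and Sdhd, which bind ubiquinone, differed by -0.42 and -0.48 with DSS in KO mice and by 0.05 and 0.04 in WT mice. A dimmer probe set of Sdhd (1437489_x_at) went the other way, with a difference of -0.75 between the untreated KO and WT arrays where the brighter one had 0.32.

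In complex III, the cytochrome bc1 complex, the chosen probe sets of all 8 genes were lowest in KO DSS colon and highest in untreated KO colon. Of 6 further kept probe sets of these genes, 5 were lowest in KO DSS colon but 1 was highest in untreated KO colon. For untreated KO against WT, a second probe set of Uqcrc2 (1435757_a_at) gave -0.44, one of Uqcrb (1416337_at) -0.18 and one of Uqcr10 (1434340_at) -0.20. Uqcrc1 (1428782_a_at), a core protein of the complex, had a log2 signal of 9.11 in KO DSS colon, 9.49 in WT DSS colon, 9.99 in untreated KO colon and 9.25 in untreated WT colon. Its difference with DSS was -0.88 in KO mice, a signal 1.84 times lower, and 0.24 in WT mice. The small subunit Uqcrq had the same order, with 8.79 in KO DSS colon, 9.27 in WT DSS colon, 9.63 in untreated KO colon and 8.96 in untreated WT colon. For both genes the WT DSS array was above the untreated WT array, while the KO DSS array was below the untreated KO array. The small subunits Uqcr10 and Uqcr11 differed by -0.80 and -0.78 with DSS in KO mice, and Uqcrfs1, the Rieske iron-sulfur protein, by -0.59. The remaining differences in KO mice were -0.45 for the hinge protein Uqcrh, -0.34 for Uqcrb and -0.30 for the core protein Uqcrc2. In WT mice the 8 genes lay between -0.12 and 0.31.

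Cycs encodes cytochrome c, the soluble carrier between complexes III and IV. It did not share the order of its neighbours. Its log2 signal was 10.74 in KO DSS colon, 10.66 in WT DSS colon, 10.47 in untreated KO colon and 10.43 in untreated WT colon, so that both DSS arrays were above both untreated arrays. Another of its probe sets (1422483_a_at) had its low value on the untreated WT array instead, with a difference of -0.04 with DSS in KO mice and 0.61 in WT mice.

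Promoter windows from RefSeq (GRCm38.p6), covering the 250 bases before an annotated start, were available for 67 of the 82 genes, some with more than 1 start. The windows were searched on both strands for matches to the motifs of 3 factors known to act on respiratory chain genes: the letters GCGCA and GCGC with any 1 base between them for NRF1, CCGGAAG for GABPA and AAGGTCA for the estrogen-related receptors. Matches to the NRF1 motif were in 12 of 72 windows (16.7%), against 3.74% of all 32851 windows. Matches to the GABPA motif were in 12 (16.7%), against 6.91%, and to the receptor motif in 5 (6.94%), against 4.08%. Of 8 genes of complexes II and III with a window, 4 held a match and 4 (Sdhb, Uqcrc1, Uqcr10 and Uqcrfs1) held none. The windows of Sdha, Sdhd and Uqcr11 are shown as examples with a match, chosen after the matches were known, and that of Cox7a1 because its difference with DSS was the most negative. They lie at chr13:74350241-74350490 (minus strand) for Sdha, chr9:50603850-50604099 (minus strand) for Sdhd, chr10:80406822-80407071 (minus strand) for Uqcr11 and chr7:30183921-30184170 (plus strand) for Cox7a1. They are written in the direction of the gene, with motif matches in capitals.
Sdha: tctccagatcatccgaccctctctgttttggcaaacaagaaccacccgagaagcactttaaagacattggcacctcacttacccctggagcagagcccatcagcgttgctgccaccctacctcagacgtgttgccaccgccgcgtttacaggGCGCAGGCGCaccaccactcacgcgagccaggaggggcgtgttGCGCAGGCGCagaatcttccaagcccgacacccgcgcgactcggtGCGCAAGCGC
Sdhd: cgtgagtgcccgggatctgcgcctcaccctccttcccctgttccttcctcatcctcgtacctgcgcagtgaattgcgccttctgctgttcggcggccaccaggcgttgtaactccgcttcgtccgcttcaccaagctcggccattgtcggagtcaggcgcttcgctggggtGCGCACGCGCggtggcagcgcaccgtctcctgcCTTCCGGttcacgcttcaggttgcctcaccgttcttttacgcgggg
Uqcr11: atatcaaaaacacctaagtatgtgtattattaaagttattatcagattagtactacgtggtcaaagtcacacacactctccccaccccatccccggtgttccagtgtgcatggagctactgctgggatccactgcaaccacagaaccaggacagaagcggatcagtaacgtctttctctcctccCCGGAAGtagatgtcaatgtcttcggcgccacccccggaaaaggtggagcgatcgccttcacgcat
Cox7a1: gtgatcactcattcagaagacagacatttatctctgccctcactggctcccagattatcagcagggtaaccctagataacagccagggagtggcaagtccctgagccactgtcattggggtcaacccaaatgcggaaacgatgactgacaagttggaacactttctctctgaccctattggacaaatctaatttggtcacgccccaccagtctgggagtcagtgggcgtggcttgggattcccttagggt
Sdha held 3 matches to the NRF1 motif, Sdhd held 1 to the NRF1 motif and 1 to the GABPA motif on the opposite strand, Uqcr11 held 1 to the GABPA motif, and Cox7a1 held none of the motifs searched. The DSS difference in KO mice had a median of -0.41 in the 10 kept genes with an NRF1 match and -0.43 in the 54 without. It was -0.42 in the 12 with a GABPA match and -0.41 in the 52 without. A match is a string of letters and does not show that a factor bound there.

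In complex I, which oxidises NADH, 26 of the 32 genes were lower with DSS in KO mice, against 44.7% of all genes. The median difference was -0.30. In WT mice 17 of the 32 were lower, near the 50.1% of all genes, with a median of -0.02. The core subunits carry the flavin and the iron-sulfur clusters, and all 6 of those measured were lower in KO mice with DSS. Ndufv1, which binds the flavin and NADH, had a log2 signal of 8.57 in KO DSS colon, 8.80 in WT DSS colon, 9.30 in untreated KO colon and 8.84 in untreated WT colon. The others were Ndufs3 at -0.55, Ndufs8 at -0.38, Ndufs7 and Ndufv2 at -0.28 each, and Ndufs1 at -0.13.

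The 26 accessory subunits of complex I were less uniform. Differences with DSS in KO mice ran between -0.76 for Ndufv3 and 0.71 for Ndufb1, a small subunit of the membrane arm and the only subunit gene at least 1.5-fold higher. Ndufb1 (1454771_at) had a log2 signal of 5.28 in KO DSS colon, 5.37 in WT DSS colon, 4.57 in untreated KO colon and 4.97 in untreated WT colon. Ndufa5, an accessory subunit of the arm that faces the matrix, was likewise higher with DSS in both genotypes, by 0.34 in KO and 0.40 in WT mice. Ndufs4, which is attached to the NADH-oxidising end, was higher by 0.11 in KO and 0.52 in WT mice. Ndufa1, a membrane-arm subunit with the highest mean signal of the complex, was lower by nearly equal amounts, with differences of -0.47 in KO and -0.49 in WT mice. The gene Ndufc2 depended on the probe set, since its brightest (1455036_s_at) differed by 0.30 with DSS in KO mice and another (1416366_at) by -0.56. Ndufb4 had a dim probe set, at 1.31 on the KO DSS array and 1.38 on the others, and was not compared further.

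Complex IV, cytochrome c oxidase, held the subunit gene that differed most with DSS. Cox7a1 (1418709_at), the isoform of subunit VIIa found mainly in muscle, had a log2 signal of 4.28 in KO DSS colon, 4.68 in WT DSS colon, 6.66 in untreated KO colon and 6.63 in untreated WT colon. Both DSS arrays were below both untreated arrays. The difference with DSS was -2.38 in KO mice and -1.95 in WT mice, a signal 5.21 and 3.86 times lower. Cox7a2, the isoform found in most tissues, differed by -0.15 in KO and 0.08 in WT mice.

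As a set, the smooth muscle markers did not show the Cox7a1 pattern. Their summed signal over 8 of 8 genes, on the linear scale, was 6057 in KO DSS colon, 5627 in WT DSS colon, 4322 in untreated KO colon and 8457 in untreated WT colon. Their median log2 difference with DSS was 0.29 in KO and -0.55 in WT mice. Of 13 striated muscle markers 4 passed the filter. Over all 13 the summed signal was 130.8 in KO DSS colon, 107.6 in WT DSS colon, 144.9 in untreated KO colon and 157.4 in untreated WT colon. Of the 4 kept, Ckm and Actc1 had both DSS arrays below both untreated arrays, as Cox7a1 did, while Acta1 and Tnni2 did not. Ckm had a log2 signal of 4.15 in KO DSS colon, 4.81 in WT DSS colon, 5.44 in untreated KO colon and 5.01 in untreated WT colon. The cardiac and skeletal myosin genes Myh1, Myh2, Myh4, Myh6 and Myh7 were all below the filter. Of 7 adipocyte markers measured 3 passed it, and Ucp1, which defines brown fat, did not, at 0.74 to 1.37. The part of any of these cell types in the Cox7a1 difference was not tested.

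Among the widely used subunits of complex IV, Cox8a (1448222_x_at) had the largest difference with DSS in KO mice. It had a log2 signal of 8.96 in KO DSS colon, 9.39 in WT DSS colon, 10.11 in untreated KO colon and 9.61 in untreated WT colon, a difference of -1.15 in KO mice and -0.22 in WT mice. A separate probe set of Cox8a (1416112_at) gave -1.30 and -0.24. Cox4i1, which regulates the enzyme through adenine nucleotides, and Cox5b, which faces the matrix, each differed by -0.68 in KO mice, and by -0.10 and -0.14 in WT mice. Cox6c differed by -0.57, Ndufa4 by -0.44, Cox6a1 by -0.41 and Cox6b1 by -0.37 in KO mice. A second kept probe set of Cox6c (1434491_a_at) gave 0.04 instead. Those of Cox6a1 (1417418_s_at) and Cox6b1 (1416565_at) gave -1.13 and -0.61. Cox5a, which also faces the matrix, was the one kept gene of complex IV that was higher with DSS in KO mice, by 0.18, and another of its probe sets (1448153_at) gave -0.25.

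**Figure D4:**
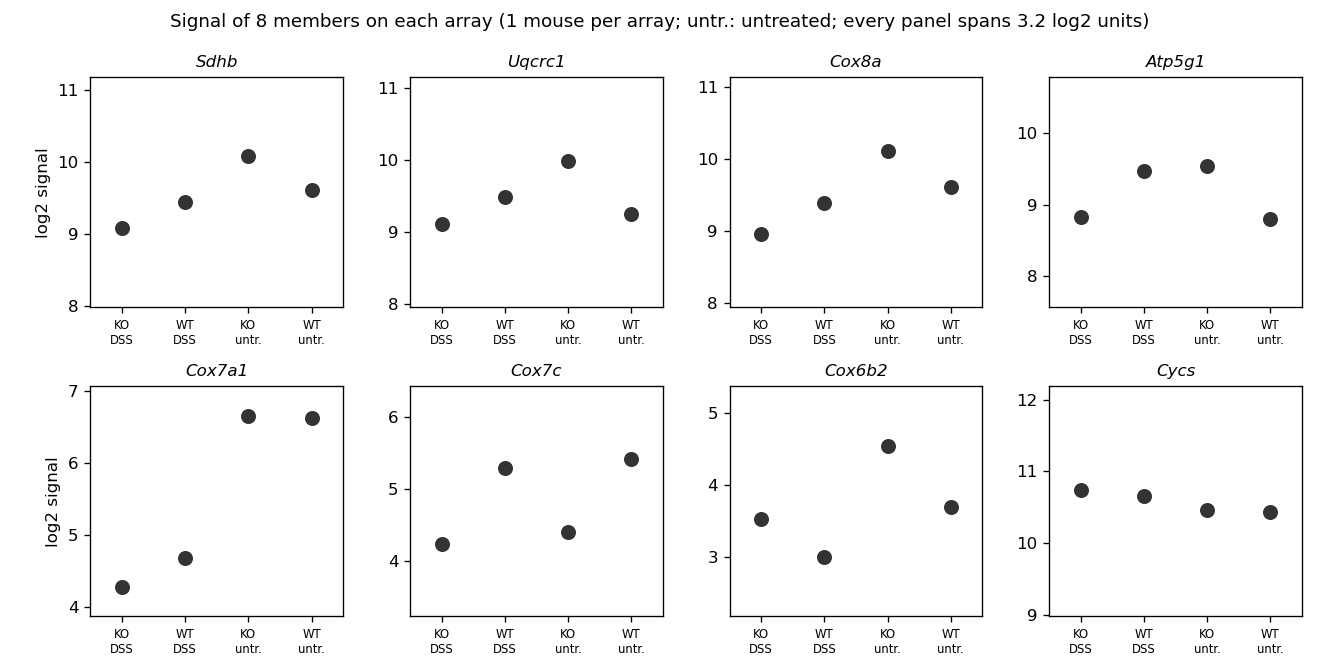
Log2 signal on each array for 8 subunit genes, 1 point per array, with every panel spanning the same range of the log2 scale so that distances can be compared between panels. Cox7a1 separates DSS from untreated arrays, Cox7c separates KO from WT arrays, and Atp5g1 is low on the KO DSS and untreated WT arrays.

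Most other tissue isoforms of complex IV were dim, while Cox8c lay at 5.32 to 5.93, percentiles 72.2 to 80.2 of the arrays. Cox6b2, the testis isoform of subunit VIb, had a log2 signal of 3.53 in KO DSS colon, 3.0 in WT DSS colon, 4.55 in untreated KO colon and 3.70 in untreated WT colon, so that the DSS difference was -1.02 in KO and -0.70 in WT mice. Cox6a2, the muscle isoform of subunit VIa, and Cox8c, a testis isoform of subunit VIII, differed by -0.68 and -0.61 in KO mice and by -0.08 and 0.10 in WT mice. The lung isoform Cox4i2, the testis isoform Cox7b2 and the muscle isoform Cox8b were below the filter, at 2.22 to 2.44, 0.50 to 0.95 and 2.22 to 2.65. Over the 73 genes left without the kept tissue isoforms and Ndufa4l2, the median DSS difference was -0.41 in KO mice and -0.06 in WT mice.

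Complex V was lower with DSS in 16 of 17 genes in KO mice, against 44.7% of all genes, with a median difference of -0.41. In WT mice 12 of 17 were lower, against 50.1% of all genes, with a median of -0.08. The catalytic head is built from the products of Atp5a1, Atp5b, Atp5c1, Atp5d and Atp5e, which differed by -0.57, -0.58, -0.41, -0.65 and -0.30 in KO mice. In WT mice these 5 lay between -0.21 and 0.12. Atp5o, which joins the head to the peripheral stalk, had a log2 signal of 9.49 in KO DSS colon, 9.88 in WT DSS colon, 10.34 in untreated KO colon and 9.94 in untreated WT colon. On this probe set (1416278_a_at) the KO DSS array was again the lowest and the untreated KO array the highest. A dimmer probe set of Atp5o (1437164_x_at) was also lowest in KO DSS colon, at 7.09, but highest in untreated WT colon, at 7.66. Its DSS difference in KO mice was -0.14. Atp5pb, another subunit of the stalk, was higher with DSS in KO mice, by 0.08, but another of its probe sets (1426742_at) gave -0.20. A dim probe set of Atp5a1 (1420037_at) disagreed with the bright one, with a DSS difference of 0.95 in KO mice.

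Atp5g1, Atp5g2 and Atp5g3 encode the same mature protein of the membrane ring, each with its own import sequence, and they did not share 1 pattern. Atp5g1 (1416020_a_at) had a log2 signal of 8.83 in KO DSS colon, 9.47 in WT DSS colon, 9.54 in untreated KO colon and 8.80 in untreated WT colon. Its DSS difference was -0.71 in KO mice and 0.67 in WT mice, and no other subunit gene passed 1.5-fold higher with DSS in WT mice. Atp5g2 differed by -0.34 in KO and 0.02 in WT mice, and Atp5g3 by -0.10 and 0.13.

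KO and WT mice were then compared within each treatment. With DSS, 73 of 78 subunit genes were lower in KO than in WT colon, against 53.1% of all genes, and the median log2 difference was -0.20, against -0.03 over all genes. These differences were small, and 3 genes passed 1.5-fold lower (Cox7c, Atp5g1 and Ndufa6) and none passed it higher, against 4.4% and 9.28% of all genes. All 17 kept genes of complex V, all 8 of complex III and all 4 of complex II were lower, as were 30 of 32 of complex I and 13 of 14 of complex IV. The medians were -0.38 for complex III, -0.30 for complex II, -0.22 for complex I, -0.19 for complex V and -0.14 for complex IV. Ndufa6, an accessory subunit of complex I, had a log2 signal of 8.31 on the KO DSS array against 8.90 on the WT DSS array. The genes that were higher in KO colon with DSS were Cox6b2 by 0.53, Cox7a2l by 0.12, Ndufa3, an accessory subunit of complex I, by 0.11 and Cycs by 0.08.

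Without DSS, 57 of the 78 genes were higher in KO than in WT colon, against 47.5% of all genes, with a median difference of 0.12 against -0.02 over all genes. At least 1.5-fold higher were 5 genes, Cox6b2, Uqcrc1, Atp5g1, Uqcrq and Ndufa4, at 0.85, 0.74, 0.74, 0.67 and 0.67, against 8.81% of all genes. The dim Cox6b2 passed the filter only through its untreated KO value, since its mean over the other arrays was 3.41. At least 1.5-fold lower were Cox7c and Ndufc2, against 15.4% of all genes. All 4 genes of complex II and all 8 of complex III were higher, with medians of 0.39 and 0.34. The medians were 0.28 for complex IV, 0.15 for complex V and 0.05 for complex I. This comparison rests on the untreated KO array, and its part in the direction was not tested.

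Cox7c, a small subunit of complex IV, was the gene that separated the genotypes most widely. Its brighter probe set (1459885_s_at) was dim beside the other widely used subunits of complex IV, at percentiles 59.8 to 73.5 of the arrays. Cox7c had a log2 signal of 4.24 in KO DSS colon, 5.30 in WT DSS colon, 4.41 in untreated KO colon and 5.43 in untreated WT colon. It was the single subunit gene 2-fold apart between the genotypes, as were 1.16% of all genes in the lower and 3.86% in the higher direction with DSS, and 5.76% and 3.04% without it. KO was 2.09 times lower than WT with DSS and 2.03 times lower without it. The dimmer probe set (1459884_at), below the filter, gave KO minus WT differences of -1.13 with DSS and -1.03 without.

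Cox7a2l, a factor that joins complexes III and IV, was lower with DSS in both genotypes, with a difference of -0.31 in KO and -0.66 in WT mice. Its log2 signal was 8.61 in KO DSS colon, 8.49 in WT DSS colon, 8.92 in untreated KO colon and 9.15 in untreated WT colon, so that both DSS arrays were below both untreated arrays. Ndufa4l2, a hypoxia-induced paralogue of Ndufa4, was dim and nearly flat, at 3.83 to 3.94.

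Of the 82 genes 49 had several probe sets, which gave a second reading of the same RNA. For 45 genes there were 70 further probe sets above the filter. With DSS in KO mice 58 of the 70 were below 0, against 44.7% of all genes, with a median difference of -0.38. The sign was that of the chosen probe set for 58. The KO DSS array was the lowest for 50 of the 70, the untreated KO array the highest for 42, and both held for 36. Over all genes these shares were 23.7%, 27.8% and 13.3%. For KO against WT with DSS 60 of the 70 were below 0, against 53.1% of all genes, with a median of -0.23. In untreated mice 43 of 70 shared the sign of the chosen probe set, so that the KO against WT direction of single genes was less settled there.

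A linear model over the 4 arrays, fitted with limma, tested the effect of DSS with genotype as covariate and the effect of genotype with treatment as covariate. It had 1 residual degree of freedom, so a gene's own error is how unequal the effect was in the other factor's levels. The eBayes step moderates that error with information from all genes, with a median of 2.53 prior degrees of freedom. After Benjamini-Hochberg adjustment over the 11504 genes, 0 subunit genes and 0 of all genes passed a threshold of 0.05 for DSS or for genotype. At an unadjusted p under 0.05 for DSS, 2 subunit genes were lower and 0 higher, against 4.27% and 7.74% of all genes. In limma Cox7a1 had a DSS difference of -2.17 (SE 0.26, adjusted p = 0.369). That adjusted p was the lowest reached and was shared by 626 genes, and 26 genes had a smaller unadjusted p. Cox6b2, which passed the filter only through its untreated KO value, had -0.86 (SE 0.25, adjusted p = 0.393 in limma). For genotype 1 subunit gene was lower and 0 higher at an unadjusted p under 0.05, against 0.817% and 0.695% of all genes. That gene was Cox7c, with a KO minus WT difference of -1.04 (SE 0.24, adjusted p = 0.9997 in limma).

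Related mitochondrial genes were set beside the subunits. Of 76 kept genes for mitochondrial ribosomal proteins, which translate the subunits made from mitochondrial DNA, 15 were at least 1.5-fold higher and 3 lower with DSS in KO mice, with a median difference of 0.27, against 22.3% and 14.4% of all genes and a median of 0.07. In WT mice 37 were higher and 0 lower, with a median of 0.57, against 13.5% and 12.6% of all genes and a median of -0.01. The count in KO mice was thus near that of all genes. Mrps18b had the highest difference in WT mice, 1.57. With DSS 71 of the 76 were lower in KO than in WT colon, with a median of -0.27, against 53.1% and -0.03 over all genes. The DSS medians of the mitochondrial ribosome and the respiratory chain had opposite signs in KO mice, while in WT mice the subunit median of -0.06 was close to 0.

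Assembly factors, which help to build the complexes but are not part of them, had a median DSS difference of 0.00 in KO and 0.23 in WT mice over 42 kept genes. With DSS 41 of 42 were lower in KO than in WT colon, with a median of -0.20, against 53.1% and -0.03 over all genes. The complex IV factor Surf1 had a DSS difference of -0.98 in KO mice, and the complex I factors Timmdc1 and Ndufaf4 were higher by 1.19 and 1.10. On the untreated KO array Surf1 was at 7.90 and Timmdc1 at 3.46. On the other arrays they lay at 6.92 to 7.15 and at 4.65 to 5.02. Ndufaf4 was also higher with DSS in WT mice, by 0.88. The 16 genes of pyruvate dehydrogenase and the citric acid cycle had medians of -0.07 in KO and 0.01 in WT mice for DSS. At least 1.5-fold lower in KO mice were 3 of them, Suclg2 at -0.91, Ogdh at -0.69 and Suclg1 at -0.63, against 14.4% of all genes. With DSS 15 of the 16 were lower in KO than in WT colon, with a median of -0.22, against the same 53.1% and -0.03.

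**Figure D5:**
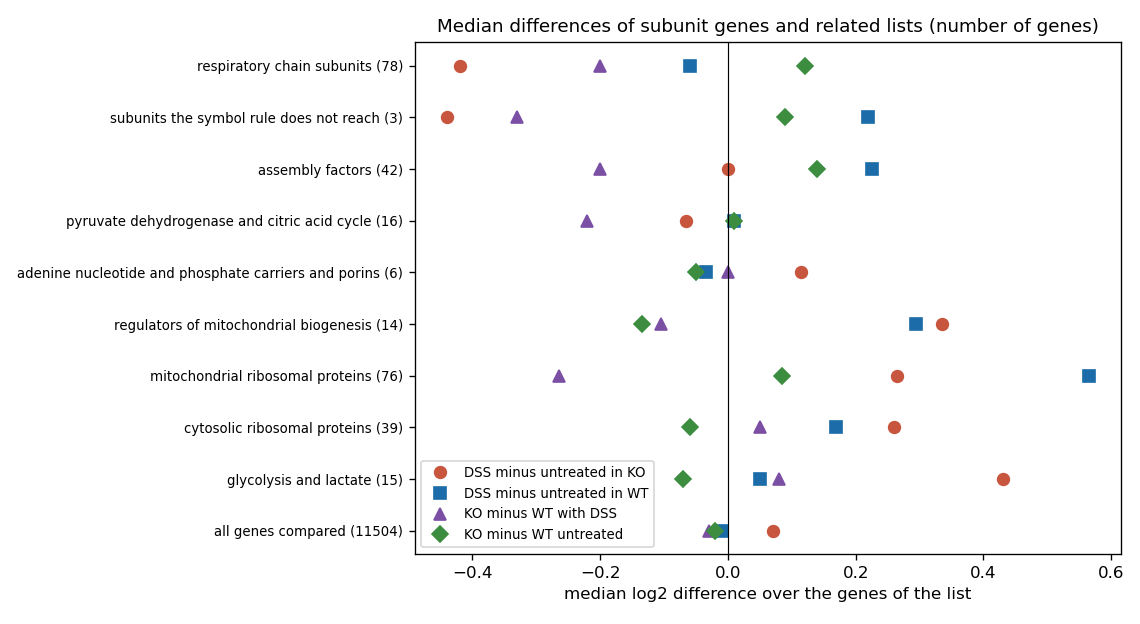
Median log2 difference over the genes of each list in the 4 comparisons, with the number of genes in brackets. The subunit genes have the DSS median of -0.42 in KO mice, and mitochondrial ribosomal proteins have 0.27 in KO and 0.57 in WT mice.

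The 3 kept genes for subunits or partners that have other symbols were looked at separately. Cyc1, the cytochrome c1 of complex III, had a log2 signal of 10.17 in KO DSS colon, 10.50 in WT DSS colon, 10.61 in untreated KO colon and 10.28 in untreated WT colon, lowest and highest on the same arrays as the rest of that complex. Atpif1, an inhibitor of complex V, differed by -0.50 with DSS in KO mice and 0.07 in WT mice. Ndufab1, an acyl carrier protein in complex I, differed by 0.15 and 0.31.

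Of 14 regulators of mitochondrial biogenesis, 10 were higher with DSS in each genotype, against 6246 of all 11504 genes in KO and 5582 in WT mice. The medians of the regulators were 0.34 in KO and 0.30 in WT mice, against 0.07 and -0.01 over all genes. The coactivators differed among themselves. Ppargc1a, a coactivator of respiratory chain genes, had a log2 signal of 3.85 in KO DSS colon, 3.55 in WT DSS colon, 5.49 in untreated KO colon and 5.96 in untreated WT colon. Its DSS difference was thus -1.64 in KO and -2.41 in WT mice. Its relative Ppargc1b had 6.88 in KO DSS colon, 7.63 in WT DSS colon, 8.13 in untreated KO colon and 7.62 in untreated WT colon, lowest and highest on the same arrays as most subunits. The third member of that family, Pprc1, was higher with DSS by 0.95 in KO and 0.96 in WT mice. Gabpa, the DNA-binding subunit of the GABP factor, was higher with DSS by 0.97 in KO mice and differed by -0.29 in WT mice. The Gabpa signal was 5.80 on the untreated KO array and 6.64 to 6.93 on the others.

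Glycolytic genes differed the other way from the subunits in KO mice, with 7 of 15 at least 1.5-fold higher with DSS, 1 lower and a median of 0.43, against 22.3%, 14.4% and 0.07 over all genes. Slc16a3, among the 7, passed the filter only through its KO DSS value of 4.01, as it lay at 3.35 to 3.42 on the other arrays. In WT mice 1 was higher and 1 lower, with a median of 0.05, against 13.5%, 12.6% and -0.01 over all genes. On the untreated KO array 4 of the 15 were at least 1.5-fold lower than on the untreated WT array, against 15.4% of all genes. Without the untreated KO array the medians were smaller. They were 0.08 for KO against WT with DSS and 0.17 for KO DSS against untreated WT colon, against -0.03 and 0.02 over all genes. The glycolytic regulator Pfkfb3 was higher by 2.36 in KO and 0.18 in WT mice, and the hexokinase Hk2 by 1.43 and 0.75. The 6 adenine nucleotide carriers, phosphate carriers and porins had medians of 0.12 in KO and -0.04 in WT mice. The 39 kept cytosolic ribosomal protein genes had 0.26 and 0.17.

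Markers of other cell types also differed between the arrays on which the subunits were high and low. The summed linear signal of 8 of 8 leukocyte markers was 1819 in KO DSS colon, 721.4 in WT DSS colon, 950.7 in untreated KO colon and 1192 in untreated WT colon. That of 7 of 7 fibroblast markers was 4106 in KO DSS colon, 2011 in WT DSS colon, 2238 in untreated KO colon and 2769 in untreated WT colon. Both lists were highest on the array where most subunits were lowest. The 8 general epithelial markers summed to 14697 in KO DSS colon, 14682 in WT DSS colon, 16841 in untreated KO colon and 15675 in untreated WT colon, a smaller range. Single markers within this sum differed. Epcam and Vil1 were lowest and highest on the same arrays as most subunits, which the other epithelial markers were not. In untreated mice Cdx2 was higher in KO than in WT colon by 2.25. Cdh1 and Krt18, 2 of the 8, were lower there, with differences of -0.66 and -0.44. The 6 markers of absorptive colonocytes did not run 1 way. Their summed signal was 4327 in KO DSS colon, 6488 in WT DSS colon, 11418 in untreated KO colon and 6822 in untreated WT colon, but Car1, a carbonic anhydrase, alone gave 7643 of the untreated KO value. Without Car1 the sum was 2838 in KO DSS colon, 4705 in WT DSS colon, 3775 in untreated KO colon and 5653 in untreated WT colon, so that the KO arrays were below both WT arrays. Aqp8, Slc26a3 and Car4, 3 of the 6, were lower in untreated KO than in untreated WT colon. The part of cell composition or of position along the gut in the subunit differences was not tested.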

How the data were processed

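Total RNA of distal colon was labelled as biotinylated cRNA for Affymetrix mouse arrays, per the labels' protocols. The authors deposited 1 table of 45101 probe sets on a log scale, read here as log2, since read as a natural log the top value would be 556821, beyond the scanner's limit of 65535, and as log2 it is 9608. The summarization and normalization behind these deposited log2 values are not given in the sources used here, and the values were used unchanged. Of the probe sets, 64 were controls, 34945 had 1 gene in the platform annotation (34741 matched to the RefSeq gene table of GRCm38.p6 by gene number), 932 had several and 9160 were unnamed. Genes were kept when the mean of their brightest probe set exceeded 3.455, the median over probe sets. The depth is not defined for arrays, and the number of arrays limits the precision.

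Groups came from the labels, with 1 mouse each. Differences within 4 pairs of arrays had no test. limma 3.58.1 in R 4.3.3 (lmFit, and eBayes with an intensity trend) fitted both factors over all arrays, two-sided, with Benjamini-Hochberg adjustment, and was tested on simulated data. Its p-values rest on how unequal each effect was across the other factor, moderated over all genes. They do not measure a spread between mice of a group. Named genes were the brightest of each complex, all of complexes II and III, Cycs, tissue isoforms, genes below the filter and genes with discordant probe sets. The 5 highest and lowest differences of each comparison and the 5 lowest limma p were also to be named. Of these, Ndufb11, Ndufa8, Ndufb3, Ndufb5 and Ndufc1 were not described. Ndufv1, Ndufv3, Ndufs3, Ndufs7, Ndufs8, Ndufv2, Ndufs1, Cox5b, Cox6c, Atp5b, Atp5c1, Atp5d, Atp5e, Atp5o and Atp5pb were named after their values were seen. So were the markers Car1, Ckm, Actc1, Acta1, Tnni2, Epcam, Vil1, Cdx2, Cdh1 and Krt18, and the glycolytic gene Slc16a3. The genes and the 19 lists were chosen with earlier results of these data known. Alternatives were quantile normalization, median centring, other filters, the mean over probe sets, dropping _x_at, _s_at and _a_at probe sets, a 2-fold threshold, the untreated WT array as baseline, and limma without covariate or trend. Other calculations used pandas 2.3.3 and numpy 2.4.6 in Python 3.11.15, with plots by matplotlib 3.10.9.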

Additional observations from a re-analysis of the deposited data

Results flagged for a closer look

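The KO minus WT difference of the subunit genes had opposite signs with and without DSS. Its median over the 78 genes was -0.20 with DSS and 0.12 in untreated mice, and the difference between these was not tested. The second value rests on the untreated KO array, on which the posterior marker Hoxb13 was at 2.48 against 9.47 on the untreated WT array.

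Atp5g1 moved in opposite directions in the 2 genotypes and in the 2 treatments. Its log2 difference with DSS was -0.71 in KO and 0.67 in WT mice, and its KO minus WT difference was -0.64 with DSS and 0.74 without. The difference between these effects was not tested, since each group had 1 array.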

How the results depend on the processing

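The precision is limited by 1 array per group, and no array could be left out of a pair. No paired analysis was possible because the labels carry no replicate numbers. Over the alternatives, 140 of the summary values stayed close to those reported and 27 moved, while 1117 values of named genes stayed close, 34 moved and 3 changed sign. At a 2-fold threshold, the DSS counts in KO mice were 0 higher and 4 lower, in WT mice 0 and 1, and KO against WT had 0 higher and 1 lower untreated and 1 lower with DSS. With the untreated WT array as baseline for KO DSS, genotype and treatment both differed. That baseline gave 0 genes higher and 8 lower, with a median of -0.25, and Atp5g1 differed by 0.03. Quantile normalization gave 9 higher and 1 lower for KO against WT untreated. The filter at the 75th percentile gave 0 higher with DSS in KO mice, 1 lower for KO against WT untreated, and at unadjusted p under 0.05 in limma 1 lower for DSS and 0 for genotype. The filter on any array gave 1 lower for DSS in limma. The mean over probe sets gave 0 higher with DSS in WT mice, 1 lower for KO against WT untreated, 1 higher for genotype in limma, and 0.0475 for Ndufc2 in untreated KO against WT mice. Without _x_at, _s_at and _a_at probe sets, 60 genes were left. Then 2 genes were higher with DSS in KO and 0 in WT mice, 0 were lower for KO against WT untreated and 1 with DSS, 0 were lower for genotype in limma, and Ndufc2 was at 0.24 in untreated KO against WT mice. Without the covariate, limma gave 4 subunit genes lower for DSS at unadjusted p under 0.05 and 1 gene of all past the adjusted threshold. The causes were not tested.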
